A study of Mus musculus with 6 samples.

Results

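The neurotrophin genes examined here were Bdnf and Ntf3, which encode secreted neurotrophins, Ntrk2 and Ntrk3, which encode their Trk receptors, Ngfr and Sort1, which encode the p75 receptor and its co-receptor sortilin, and Vgf, a secreted peptide precursor induced by neurotrophins. The genes were listed by name and taken from the array where a probe set maps to a single gene symbol. Of the 7 listed genes, 6 had such a probe set, 1 each, among 19938 genes in all, and Ntf3 was not analysed here. The tissue was forebrain cortex from adult C57BL/6 mice, and RNA of each animal was read on 1 Affymetrix whole-transcript array. The 3 animals labelled Dicer KO had the genotype CamKII-Cre/+;Dicer flox/flox, where Cre recombinase is driven by the CamKII promoter, known for activity in excitatory neurons of the forebrain and not in glia, vessels or most interneurons. The 3 controls were littermates of which some (CamKII-Cre/+;Dicer flox/+) carried Cre with 1 floxed allele and others, as +/+;Dicer flox/flox, had both floxed alleles but no Cre, and the labels do not tell which control was which. At least 1 floxed Dicer allele is thus common to all 6 animals. The comparison asks how the cortex of animals labelled Dicer KO differs from that of controls.

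Neurotrophins are made as precursors, sorted by sortilin into the regulated secretory pathway and cut to the mature form before or after release. Mature BDNF binds TrkB, the product of Ntrk2, and NT-3, the product of Ntf3, binds TrkC, the product of Ntrk3, which in turn engage adaptor proteins and the Ras, phosphoinositide 3-kinase and phospholipase C pathways. Uncleaved precursors bind p75 together with sortilin, a pair known for signals that oppose those of Trk receptors. In the cortex Bdnf is transcribed mainly by excitatory neurons, under the control of neuronal activity, and is known for supporting dendrites, synapses and the peptide expression of interneurons.

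Dicer cuts microRNA precursors into mature microRNAs, and several of these are reported regulators of the genes examined. Their mature sequences are shown because bases 2 to 8, the seed in capitals, are the part that pairs with a target. The first 5 are reported to act on Bdnf, and the first 3 of those share a single seed. The last 4 are reported to act on Ntrk3, and the middle pair of these share a seed as well. This set was chosen after the data had been seen, and the sequences are those of RefSeq (GRCm38.p6).
mmu-miR-15a-5p: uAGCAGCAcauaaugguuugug
mmu-miR-16-5p: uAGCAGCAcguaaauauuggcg
mmu-miR-195a-5p: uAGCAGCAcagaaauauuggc
mmu-miR-30a-5p: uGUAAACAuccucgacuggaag
mmu-miR-206-3p: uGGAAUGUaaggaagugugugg
mmu-miR-9-5p: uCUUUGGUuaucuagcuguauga
mmu-miR-125a-5p: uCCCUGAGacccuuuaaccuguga
mmu-miR-125b-5p: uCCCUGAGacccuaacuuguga
mmu-miR-128-3p: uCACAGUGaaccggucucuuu
Mature microRNAs were not measured. Probe sets over their genes can read precursor transcripts, and Mir30a read 6.43, 6.45 and 6.48 on the log2 scale in arrays 1 to 3 labelled Dicer KO against 6.17, 6.04 and 6.03 in control arrays 1 to 3, without overlap (difference 0.38 ± 0.082 SE, adjusted p = 0.0927). The groups overlapped for Mir206, Mir15a, Mir16-1 and Mir195a, with differences of -0.11, 0.15, 0.0004 and -0.0079. Of the other precursors of microRNAs reported to act on Bdnf, Mir1a-1 read lower without overlap (-0.24 ± 0.13 SE, adjusted p = 0.467), opposite to Mir30a, and Mir182 and Mir10b overlapped at -0.044 and -0.066. The probe sets of Mir206, Mir1a-1 and Mir10b, at 2.76 to 3.47, were dim and may carry little signal. The groups also overlapped for Mir9-1 at 0.31, Mir9-3 at 0.21, Mir125a at -0.022, Mir125b-1 at 0.047, Mir125b-2 at 0.14, Mir128-1 at 0.37 and Mir128-2 at 0.096.

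Bdnf has many promoters, and for the measured genes the RefSeq table of the stretches before gene starts holds 7 for Bdnf, 1 for Ntrk2 and 1 for Ngfr; Ntrk3, Sort1 and Vgf were not matched. The 250 bases before each start were searched on both strands for the cyclic AMP response element TGACGTCA, for its short core TGACG and for the variant TCACGTCA known from the activity-regulated Bdnf promoter IV, which contains that core on the other strand. The variant was found before 1 of the 7 Bdnf starts, beginning 38 bases upstream of it, and is in 0.35% of all 32851 stretches searched. No other Bdnf start, and neither Ntrk2 nor Ngfr, had any of the motifs in this window, while 17.8% of all stretches hold the core and 1.55% the full element. The Bdnf stretch that holds the variant, in capitals, is shown with that of Ntrk2, the receptor whose values lay in the other direction, both on the plus strand of GRCm38.p6.
Bdnf, chr2:109692186-109692435: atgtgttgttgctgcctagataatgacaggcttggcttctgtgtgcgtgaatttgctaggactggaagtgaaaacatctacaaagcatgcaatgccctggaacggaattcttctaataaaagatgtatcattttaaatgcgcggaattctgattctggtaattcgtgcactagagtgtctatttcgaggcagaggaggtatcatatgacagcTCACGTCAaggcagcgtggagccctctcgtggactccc
Ntrk2, chr13:58806319-58806568: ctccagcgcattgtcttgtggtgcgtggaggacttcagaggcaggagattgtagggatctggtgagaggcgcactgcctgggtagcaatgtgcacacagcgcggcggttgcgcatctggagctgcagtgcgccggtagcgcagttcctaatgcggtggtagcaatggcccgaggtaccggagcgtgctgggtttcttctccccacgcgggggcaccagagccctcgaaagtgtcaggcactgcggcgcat
The single Bdnf probe set is annotated with transcripts from many of these starts, so the array does not tell which promoter a difference comes from.

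Bdnf had lower values in the animals labelled Dicer KO. On the log2 scale it read 7.61, 7.48 and 7.58 in arrays 1 to 3 labelled Dicer KO and 7.86, 7.96 and 8.14 in control arrays 1 to 3. All 3 labelled KO arrays lay below all 3 controls, with a gap of 0.25 between the groups, and control array 3 was the highest. The means of 7.56 ± 0.066 and 7.99 ± 0.14 (SD, n = 3 each) differed by -0.43 ± 0.097 (SE), which is 1.35-fold lower, with a 95% interval from -0.65 to -0.21. This difference was larger than the spread within either group, but after adjustment it missed the threshold of 0.05 (limma, adjusted p = 0.102, unadjusted p = 0.0017). In the fit that weights arrays by their quality Bdnf passed, at -0.37 (adjusted p = 0.0289). In that fit 1116 of all 19938 genes passed, beside 56 in the main fit. With any 1 array left out the difference lay between -0.49 and -0.36, with adjusted p between 0.108 and 0.26. Among the males, as read from Y-linked transcripts, Bdnf was 7.61 and 7.58 in the arrays labelled Dicer KO and 7.96 in the control, and among the females it was 7.48 in the 1 array labelled Dicer KO and 7.86 and 8.14 in the controls.

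In bulk tissue, fewer cells of a type and less RNA per cell cannot be told apart. The 17 measured excitatory neuron markers, of 18 listed, averaged 10.11 to 10.15 in the arrays labelled Dicer KO and 10.24 to 10.29 in the controls on the log2 scale. Of these markers 10 were below 0 and 7 above 0 with a median difference of -0.10, and 1 was called (beside 0.281% of all genes), Nrgn, the postsynaptic protein neurogranin, which fell by 0.60 ± 0.088 (SE; adjusted p = 0.0413). The markers did not move one way: Lamp5, a membrane protein of upper-layer neurons, was at -1.19 ± 0.20 (SE; adjusted p = 0.0548) while Nptx1, which encodes a secreted synaptic protein, read higher by 0.41 ± 0.081 (SE; adjusted p = 0.0790), and neither overlapped between groups. Set against the mean of these markers within each array, and with the control mean at 0, Bdnf was at -0.26, -0.35 and -0.25 in the arrays labelled Dicer KO and at -0.093, -0.041 and 0.13 in the controls. The groups remained apart on this relative scale, where the mean difference of Bdnf was -0.29. It was -0.35 with Lamp5 left out of the marker mean, an alternative added after the data were seen. Lamp5 has the lowest difference of these markers, so leaving it out was bound to lower the Bdnf difference and adds no support. The part of these markers in the Bdnf values was not tested beyond this.

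**Figure D1:**
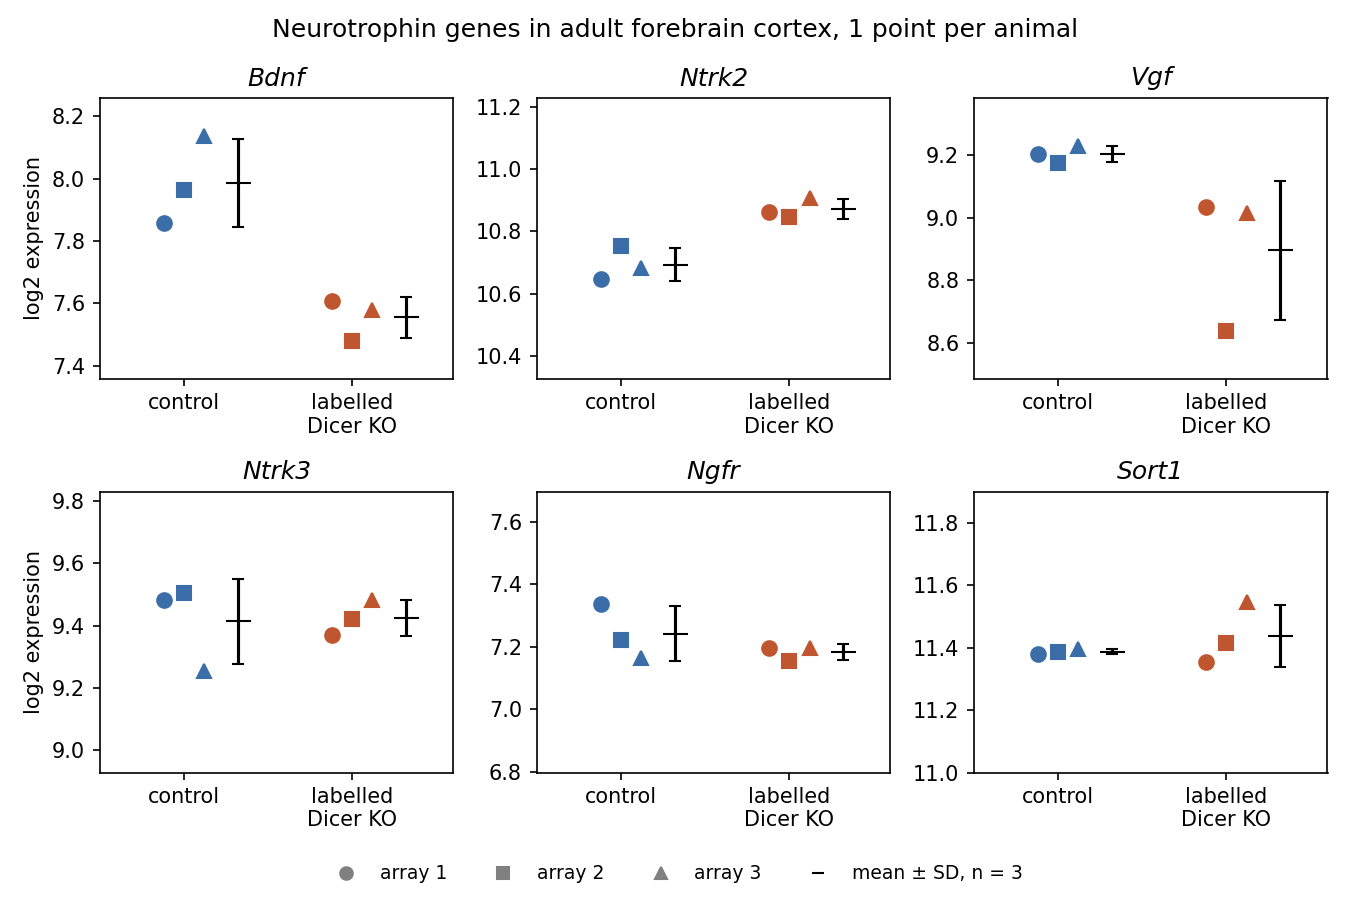
Log2 expression (y axis, a span of the same size in each panel) of the 6 measured genes in control animals (blue) and animals labelled Dicer KO (orange), 1 point per animal with its array number as the marker shape, and mean ± SD (n = 3) in black. Bdnf and Vgf lie lower and Ntrk2 lies higher in every labelled KO array than in every control, while Ntrk3, Ngfr and Sort1 overlap.

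Of the Trk receptors, Ntrk2 read slightly higher in the arrays labelled Dicer KO and Ntrk3 was about level. Ntrk2 was at 10.86, 10.85 and 10.91 in arrays 1 to 3 labelled Dicer KO and at 10.65, 10.75 and 10.68 in the controls. The groups did not overlap, with a gap of 0.094, and the mean difference was 0.18 ± 0.080 (SE), or 1.13-fold, with a 95% interval from -0.0028 to 0.36 (adjusted p = 0.356). Ntrk2 encodes a full-length kinase receptor of neurons and truncated forms common in astrocytes, and its 1 probe set was not resolved into these here. The 15 astrocyte markers, all measured, averaged 10.84 to 11.30 in the arrays labelled Dicer KO and 10.75 to 10.92 in the controls. Of these markers 12 were above 0 and 3 below, with a median difference of 0.099, and limma called none. The groups did not overlap for 7 of the 15, all higher (46.7%, beside 20.3% of all genes). The part of these markers in the Ntrk2 values was not tested. Labelled KO array 3 was the highest for both Ntrk2 and the marker average, and without it the Ntrk2 difference was 0.16.

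Ntrk3 read 9.37, 9.42 and 9.48 in the arrays labelled Dicer KO and 9.48, 9.50 and 9.26 in the controls. The groups overlapped widely, with control array 3 the lowest of all 6. The difference of 0.011 ± 0.096 (SE) has a 95% interval from -0.21 to 0.23 (adjusted p = 0.975), and its sign turned without control array 3, at -0.068, without labelled KO array 3, at -0.018, and under median centring, at -0.016. On this precision a change of about 0.2 in either direction was not detectable.

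The genes of the receptor for precursor neurotrophins were about level. Ngfr, which encodes p75 and in the adult brain is best known from basal forebrain cholinergic neurons and from glia of the olfactory system, read 7.20, 7.16 and 7.20 in the arrays labelled Dicer KO and 7.34, 7.22 and 7.17 in the controls. Its difference was -0.059 ± 0.084 (SE), with a 95% interval from -0.25 to 0.13 (adjusted p = 0.807). The highest Ngfr value was that of control array 1, in which 11 measured genes typical of olfactory bulb averaged 8.31, against 6.91 to 7.08 in the other 5 arrays. Without this array the Ngfr difference was -0.011, and the part of bulb tissue in the Ngfr values was not tested. The groups overlapped for 6 of the 7 measured markers of basal forebrain cholinergic neurons. The other marker, Chat, was lower without overlap, at -0.12 ± 0.083 (SE; adjusted p = 0.556). It makes up 14.3% of the list, beside 20.3% of all genes without overlap. The list averaged 6.41 to 6.68 in the arrays labelled Dicer KO and 6.52 to 6.66 in the controls, with 4 differences below 0 and 3 above. Sort1, the sortilin gene, read 11.35, 11.42 and 11.55 in the arrays labelled Dicer KO and 11.38, 11.39 and 11.40 in the controls. The 3 controls lay within the range of the labelled KO arrays, of which array 3 was the highest. Its difference was 0.051 ± 0.085 (SE), with a 95% interval from -0.14 to 0.24 (adjusted p = 0.838), and it was -0.0036 without labelled KO array 3.

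Vgf, whose transcript is induced by BDNF and nerve growth factor and whose product is cut into secreted peptides, read lower in the arrays labelled Dicer KO. It was at 9.03, 8.64 and 9.02 in arrays 1 to 3 labelled Dicer KO and at 9.21, 9.18 and 9.23 in the controls. The groups did not overlap, with a gap of 0.14, and labelled KO array 2 stood well below the other labelled KO arrays. The means of 8.90 ± 0.22 and 9.20 ± 0.027 (SD, n = 3 each) differed by -0.31 ± 0.12 (SE), 1.24-fold lower, with a 95% interval from -0.57 to -0.046 (adjusted p = 0.268). Without labelled KO array 2 the difference was -0.18 (adjusted p = 0.521), so the size of the Vgf value rests on that animal. It was also the 1 female labelled Dicer KO. Set against the excitatory neuron markers of each array, Vgf was at -0.047, -0.41 and -0.028 in the arrays labelled Dicer KO and at 0.037, -0.046 and 0.009 in the controls, and on this scale the groups overlapped. With Lamp5 left out of the marker mean they did not, at -0.11, -0.45 and -0.12 against 0.037, -0.052 and 0.015. Leaving out Lamp5, the marker of lowest difference, was bound to lower the Vgf difference, and no other marker was left out in turn.

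**Figure D2:**
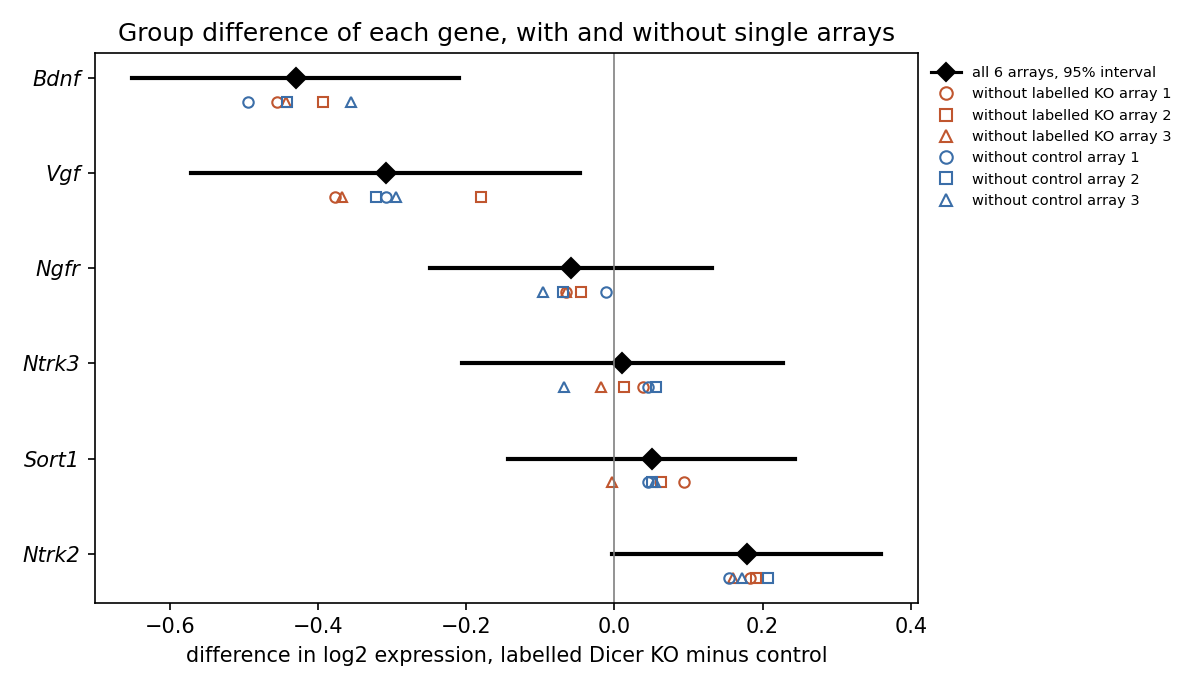
Log2 expression in labelled KO arrays minus that in controls (x axis) for each gene (y axis), as the fitted value with its 95% interval (black) and as the value with 1 array left out (open symbols, coloured by group and shaped by array number). Bdnf and Vgf stay below 0 and Ntrk2 above 0 whichever array is left out, which was certain because their groups do not overlap. Vgf moves to -0.18 without labelled KO array 2, and Ntrk3 and Sort1 change sign.

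Across the 6 measured genes, 3 had differences below 0 and 3 above 0, and none passed the adjusted threshold of 0.05 in the limma fit, where 0.281% of all 19938 genes did (0.0903% higher and 0.191% lower). At an unadjusted p under 0.05 there were 2 of the 6, Bdnf and Vgf, both lower, beside 14.4% of all genes (7.01% higher and 7.39% lower). For Vgf this p was 0.0838 if labelled KO array 2 was left out, 0.0585, 0.0502 and 0.062 if control array 1, 2 or 3 was, and 0.0558 with array weights, so that only Bdnf was under 0.05 in 4 of the 6 fits with 1 array left out. In 3 of the 6 the groups did not overlap, beside 20.3% of all genes: Ntrk2 was higher, as were 9.3% of all genes, and Bdnf and Vgf were lower, as were 11.0%. Differences as large as that of Bdnf or larger, in either direction, were measured for 3.47% of all genes, and as large as that of Ntrk2 for 26.8%. With 3 arrays in each group the smallest two-sided p of an exact permutation test is 0.1, and none was run. The log2 ratio of Bdnf to Ntrk2 was also taken within each array, with the control mean at 0. It was -0.55, -0.66 and -0.62 in the arrays labelled Dicer KO and -0.082, -0.080 and 0.16 in the controls. This ratio could not overlap between groups, because Bdnf was lower and Ntrk2 higher in every labelled KO array, so it adds no support. The ratios of Bdnf to Vgf and of Ntrk2 to Ntrk3 overlapped between groups.

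Other genes of neurotrophin signalling were spread evenly around 0. Of 67 listed genes, 59 were measured, 31 above 0 and 28 below, with a median difference of 0.013 beside -0.0092 over all genes, and limma called none of them over all genes. Among the brighter genes alone 1 was called higher, where 70 of all 9969 brighter genes were. With array weights 2 were called higher and 1 lower, where 498 and 618 of all 19938 genes were. At an unadjusted p under 0.05, 6 were higher and 1 was lower, beside 7.01% and 7.39% of all genes, and 10 of the 59 did not overlap between groups (16.9%, beside 20.3% of all genes). The split between the signs depends on the scaling, and under median centring 26 were above 0 and 33 below.

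Among the 26 measured Trk adaptors and effectors, Shc3, a neuronal adaptor that binds activated Trk receptors, read 10.19, 9.67 and 10.09 in the arrays labelled Dicer KO and 10.68, 10.72 and 10.53 in the controls. The difference of -0.66 ± 0.14 (SE) was the lowest of the list and did not pass (adjusted p = 0.0854). Pik3r1, a regulatory subunit of phosphoinositide 3-kinase, was at 0.36 ± 0.089 (SE; adjusted p = 0.129), and Sos1, which loads Ras with GTP, at 0.36 ± 0.13 (SE; adjusted p = 0.254). Both read higher in every labelled KO array than in every control. Among the 16 measured partners and effectors of p75, Zfp110, a zinc finger protein that binds the p75 intracellular domain, read 8.45, 8.68 and 8.64 in the arrays labelled Dicer KO and 8.11, 7.86 and 8.10 in the controls. Its difference of 0.57 ± 0.11 (SE; adjusted p = 0.0732) was the highest of the list, and binding of transcripts of related zinc finger genes to its probe set was not examined.

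Of 12 measured genes that process neurotrophin precursors, 6 were above 0 and 6 below, from Pcsk1, a prohormone convertase, at -0.36 ± 0.20 to Plat, the tissue plasminogen activator that acts upstream of precursor cleavage outside the cell, at 0.34 ± 0.13 (SE). Furin, the convertase of the secretory pathway, was at 0.11 ± 0.098 (SE). These 3 genes were named for their place in the pathway after their values were seen. The groups overlapped for all 4 of the other sorting receptors of the sortilin family, whose differences ran from -0.15 for Sorl1 to 0.12 for Sorcs1. Ntf5, which encodes neurotrophin-4, the other TrkB ligand, read 6.13 to 6.41 in the arrays labelled Dicer KO and 6.17 to 6.38 in the controls, a difference of -0.022 ± 0.10 (SE).

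**Figure D3:**
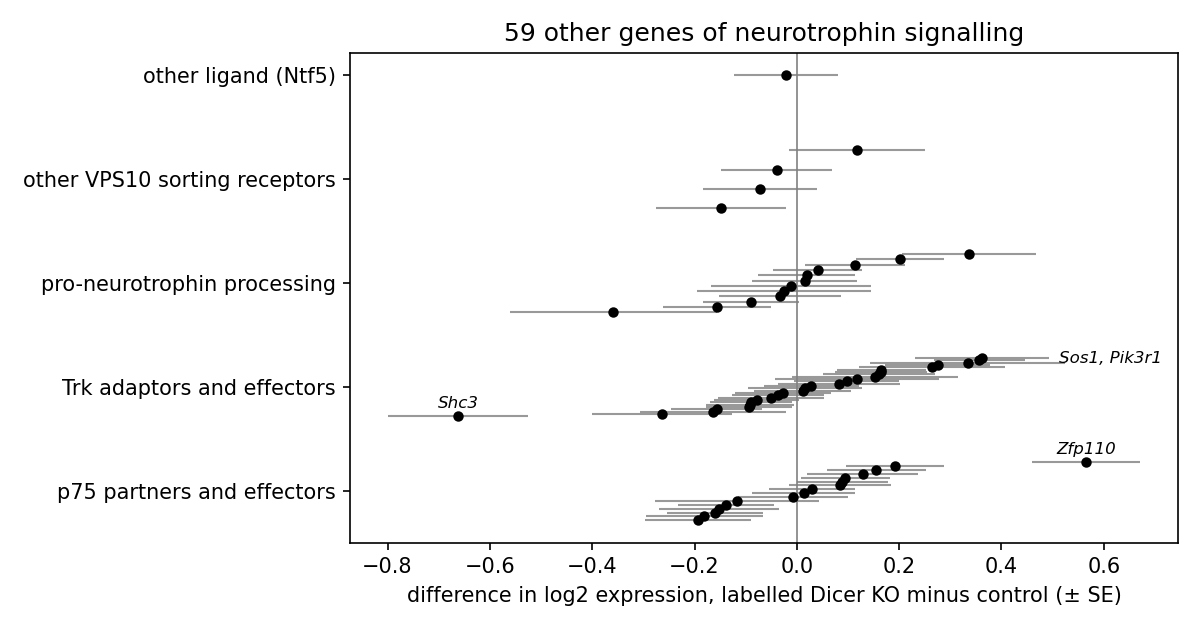
Log2 expression in labelled KO arrays minus that in controls (x axis, ± SE of the fit) for 59 further genes of neurotrophin signalling, grouped by role (y axis) and ordered by value within a role. The values lie on both sides of 0 in 4 of the 5 roles, with Shc3 at -0.66 and Zfp110 at 0.57 farthest out.

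Regulators of Bdnf transcription were measured for 21 of 23 listed genes, 15 above 0 and 6 below, with a median of 0.079 beside -0.0092 over all genes, and limma called none (3 higher and 2 lower at an unadjusted p under 0.05, beside 7.01% and 7.39% of all genes). With array weights 1 was called higher, where 498 of all 19938 genes were. Mef2a, an activity-regulated transcription factor of the MEF2 family, read 11.31 to 11.44 in the arrays labelled Dicer KO and 11.03 to 11.05 in the controls, a difference of 0.33 ± 0.081 (SE; adjusted p = 0.127). Rela, a subunit of NF-kappa B, was at 0.26 and Crtc2, a CREB coactivator, at 0.24, both without overlap. Hdac2, a histone deacetylase, was at -0.21, also without overlap. The lowest difference of the list was that of Npas4, an activity-induced transcription factor named for it after the values were seen, at -0.79 ± 0.35 (SE; adjusted p = 0.343), with 7.44 to 7.49 in the arrays labelled Dicer KO and 8.11, 7.48 and 9.21 in control arrays 1 to 3.

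Genes induced by neuronal activity or by BDNF read lower as a list, and 1 control array read highest for most of them. Of 28 listed genes, all measured, 24 were below 0 with a median of -0.39 beside -0.0092 over all genes, and 1 was called, beside 0.281% of all genes. The replicate block gave 5 calls, all lower, where 215 of all genes were called, 109 of them lower. Array weights gave 6, all lower, where 1116 of all genes were called, 618 of them lower. There was none with sex as a covariate or with every row tested, where no gene or row at all was called. In either of these 6 of the list were lower at an unadjusted p under 0.05, beside 2292 genes and 3725 rows in all. The gene called was Rgs4, a brake on G protein signalling, which read 11.66, 11.61 and 11.55 in the arrays labelled Dicer KO and 12.20, 12.21 and 12.41 in the controls, and fell by 0.67 ± 0.092 (SE; adjusted p = 0.0358). Egr3, a transcription factor of the early growth response family, read 8.73 to 8.85 against 9.22 to 9.48, at -0.54 ± 0.094 (SE; adjusted p = 0.0590). Fosl2, an AP-1 subunit, was at -0.51 and Nptx2, a secreted pentraxin of synapses, at -0.38, both without overlap between groups.

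Control array 3 read highest of the 6 arrays for 21 of these 28 genes. The list averaged 9.65 in it, 8.84 and 8.90 in control arrays 1 and 2 and 8.69 to 8.98 in the arrays labelled Dicer KO. Without control array 3, an alternative added after the data were seen, 15 of the 28 genes were below 0 and 13 above, the median was -0.013 and none was called by limma (6 lower and 3 higher at an unadjusted p under 0.05, where 2532 of all 19938 genes were). This array was the highest for 21 of the genes, so leaving it out was bound to raise their differences. Arc, a synaptic immediate early gene named here after its values were seen, was also highest in control array 3 but lay below all 3 controls in every labelled KO array, with 8.73, 8.90 and 9.38 in the arrays labelled Dicer KO and 9.62, 9.57 and 10.80 in the controls. Bdnf was also highest in control array 3, but by less. Without that array the difference of Bdnf was -0.36 and that of Vgf was -0.30. The groups of both genes were apart with all 6 arrays, so leaving 1 out could not make them overlap. The part of this array in the other Bdnf values was not tested further.

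**Figure D4:**
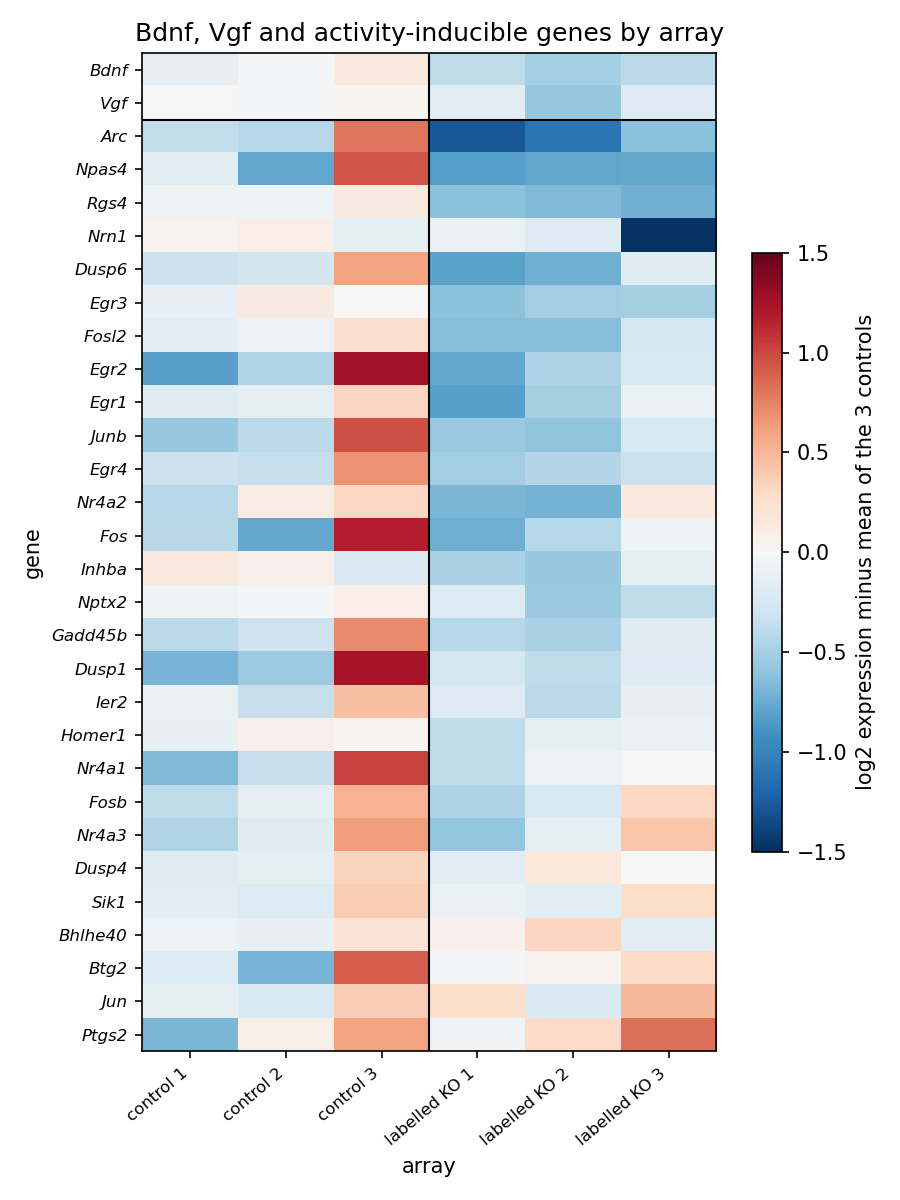
Log2 expression minus the mean of the 3 controls (colour scale) for Bdnf and Vgf (above the line) and 28 genes induced by activity or BDNF, ordered by their difference (y axis), in each array (x axis). Control array 3 is the highest array for 21 of the 28 genes, whereas Bdnf and Vgf are lower in all 3 labelled KO arrays than in every control.

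Likeness of pattern was measured as Pearson's r over the 6 arrays among 9969 genes brighter than the median gene, as a description without a test, since with 6 arrays and so many genes high values are reached easily. The genes most like Bdnf were Cnst, Copz1 and Slc7a4, with r between 0.9958 and 0.9975. Those most like Ntrk2 were Tead1, Tspan14 and Rpl21 (r from 0.9919 to 0.9951), and those most like Vgf were Atoh7, Tmem119 and Scn2b (0.9786 to 0.9865). For Ntrk3 they were Dip2b, Shc2, an adaptor of the Shc family, and Lime1 (0.9744 to 0.9945), and for Ngfr they were Mta1, Slc4a3 and Rny1 (0.9624 to 0.9767). For Sort1 they were Map3k4, the convertase gene Furin and D430042O09Rik (0.9768 to 0.989).

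Some facts of the whole set of arrays bear on these values. The 6 arrays had median log2 values from 7.13 to 7.22, and pairs correlated with r from 0.9749 to 0.9915 across probe sets. Dicer1 itself read 9.46 to 9.68 in the arrays labelled Dicer KO and 9.17 to 9.21 in the controls, a difference of 0.39 ± 0.087 (SE; adjusted p = 0.102) that goes against the label, and its 1 probe set was not placed relative to the deleted part, so directions here are those of the arrays labelled Dicer KO. Y-linked transcripts put 2 males and 1 female in the labelled KO group and 1 male and 2 females among the controls. Slc17a7, the vesicular glutamate transporter gene of cortical excitatory neurons, read 12.06 to 12.37 over all 6 arrays. The count of genes called over all genes, 56, was 0 without any 1 of 5 of the arrays and 129 without labelled KO array 3.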

How the data were processed

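Gene expression was measured in 3 animals labelled Dicer KO and 3 littermate controls, with 200 ng of total RNA per array, per the labels' protocols. The authors deposited log2 values, 1 per probe set and array, over 35557 rows. The submitters' processing notes name RMA and limma but no versions. How background was treated and probe sets were defined is not given in the sources used here. Such summarising draws differences of dim transcripts towards 0 and hides a shift common to most genes. There was no detection call to use, which leaves signal over background unknown. The small number of arrays limits how precise any value is.

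A table of the platform's annotation gave 1 symbol for 21789 rows; 1621 with several and 12147 with none listed were left out. Symbols were updated through gene identifiers (GRCm38.p6; 21698 rows), and the probe set of highest mean was used for each of 19938 genes. Group was the only term of a linear model (lmFit and eBayes of limma 3.58.1, R 4.3.3) whose two-sided p-values were adjusted by Benjamini and Hochberg's method across the 19938 genes and called under 0.05. The labels call the arrays biological replicates, and p-values measure the spread between them. Every pair of arrays differed in at least 35523 rows. The steps were tested on simulated data. The genes and lists were chosen with earlier results of these data known. Genes were named by rule: all members, genes called or otherwise up to 4 of smallest p in each list other than cell type lists, defining markers of cell type lists, and the 3 genes of most similar pattern. Npas4, Arc, Chat, the precursor-processing and sorting genes, Lamp5, Nptx1 and the microRNA genes were named after their values were seen. The alternatives tried were a replicate block, single arrays left out, scaling, dim genes, probe sets, rows tested, prior, array weights and sex. Mean differences of lists are given without a test.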

Additional observations from a re-analysis of the deposited data

How the results depend on the processing

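Whether the array numbers pair the animals was not settled. Same-numbered arrays of both groups deviated together with r of 0.089, 0.166 and 0.294, in each case the highest r of that labelled KO array with any control. These values are low, and control array 1 was slightly closer to labelled KO array 2 (0.094). The replicate block moved the count of calls over all genes from 56 to 215 and that of the measured neurotrophin genes not at all. None of these 6 genes was called under 14 of 15 alternatives; with array weights 1 was, Bdnf, at -0.37 (adjusted p = 0.0289). The number of them without overlap was 3 or 4 of 6. Most alternatives leave the array values as they are or drop 1 array, which cannot make separate groups overlap, so this adds no support. In each of the 15 alternatives Bdnf was lower, with unadjusted p below 0.05 throughout (adjusted p from 0.0289 to 0.297). Ntrk2 kept its direction in 15 (0.151 to 0.207). Vgf kept its direction in 15 (-0.38 to -0.18), with an unadjusted p under 0.05 in 10. For these 3 genes the direction could not turn with 1 array left out, since their groups do not overlap. Several other alternatives leave the difference itself unchanged, so most of these directions add no support. Ntrk3 turned to -0.016 under median centring, -0.063 with array weights and -0.012 with sex as a covariate, and lay between -0.068 and 0.056 with 1 array left out. Sort1 turned to -0.013 with array weights and lay between -0.0036 and 0.093 with 1 array left out. Ngfr is not among the brighter genes and has no value there. Over all genes the count of 56 was 178 among the brighter genes and 1116 with array weights. Of the 9969 brighter genes 2125 had an unadjusted p under 0.05, beside 2871 of all 19938 genes. The count was 0 with every row tested (3725 rows at an unadjusted p under 0.05) and with sex as a covariate (2292 genes). With 1 array left out it was 0 to 129. The cause of these shifts was not tested.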

Other observations

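Among 9 cortical neuropeptides listed for a link to BDNF, which was not tested here, 5 were below 0 and 4 above. The median was -0.11 beside -0.0092 over all genes, and limma called none (3 lower and 2 higher at an unadjusted p under 0.05, beside 7.39% and 7.01% of all genes). Cck, the cholecystokinin gene, read 12.29, 12.29 and 11.95 in the arrays labelled Dicer KO and 12.53, 12.54 and 12.60 in the controls (-0.38 ± 0.11 SE, adjusted p = 0.171). Npy was at -0.32, while Tac1 was at 0.39 and Vip at 0.32. Tac1 is also a marker of striatal medium spiny neurons. The 9 measured markers of these neurons averaged 8.37, 8.24 and 8.92 in arrays 1 to 3 labelled Dicer KO and 8.16 to 8.38 in the controls. Of these 7 were above 0 and 2 below, and 4 did not overlap (44.4%, beside 20.3% of all genes). The part of striatal tissue in the Tac1 values was not tested. Of 12 genes of granins and peptide secretion, Cadps2, a priming factor of dense-core vesicles linked to BDNF release, read 9.98, 9.89 and 9.78 in the arrays labelled Dicer KO and 10.28, 10.37 and 10.27 in the controls (-0.43 ± 0.088 SE, adjusted p = 0.0845). Its relative Cadps was at -0.15, the granin gene Chga at -0.25 and Syt4, a synaptotagmin found on vesicles that carry BDNF, at 0.26.

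Growth factors outside the neurotrophin family also read apart in both directions. Of 29 measured of 30 listed, 13 did not overlap between groups, 7 lower and 6 higher (44.8%, beside 20.3% of all genes), and limma called none (7 lower and 4 higher at an unadjusted p under 0.05, beside 7.39% and 7.01% of all genes). Vegfa, the vascular endothelial growth factor, was at -0.44 ± 0.11, Fgf13 at -0.47 ± 0.14, Fgf10 at -0.41 ± 0.13 and Igf2 at 0.49 ± 0.14 (SE). Among 21 receptors of other growth factors, Gfra2, a co-receptor of the GDNF family, read 9.23 to 9.28 in the arrays labelled Dicer KO and 9.61 to 9.88 in the controls (-0.46 ± 0.094 SE, adjusted p = 0.0834), while Pdgfrb was at 0.36, Erbb4 at 0.32 and Igf2r at 0.37. No receptor was called by limma (3 higher and 1 lower at an unadjusted p under 0.05, 4 of 21 in all beside 14.4% of all genes).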
